A study of Homo sapiens with 2 samples.

Results

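The enzymes that write, copy and remove DNA methylation were measured in neural precursor cells (NPC) and in the H9 human embryonic stem cells (hESC) that they came from. The group held 9 genes chosen by symbol: DNMT1, UHRF1, DNMT3A, DNMT3B, DNMT3L, TET1, TET2, TET3 and TDG. Each had 1 row in both count files, 9 of 24462 gene symbols in all. The NPC library came from H9 cells differentiated by co-culture on MS5 feeder cells, a mouse stromal line, and the hESC library from the undifferentiated line; no genetic change or drug is given for either. H9 is an established human pluripotent line. Each group was 1 library made from 1.3 µg of total RNA, so the comparison had no replicate check and no p-value was computed. What follows describes these 2 libraries.

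Methylation of cytosine in CpG dinucleotides is a heritable mark of silent chromatin. DNMT3A and DNMT3B place it on unmethylated DNA, DNMT3L assists them without being an enzyme itself, and DNMT1 copies it onto the new strand after replication, guided by UHRF1. The TET dioxygenases oxidise 5-methylcytosine, and the glycosylase TDG removes the further oxidised bases so that repair can restore cytosine. DNMT3B is well known as a gene of undifferentiated pluripotent cells, and TET1 is the main TET gene of mouse embryonic stem cells.

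The sequences below show the catalytic codons that the methyltransferases and the TET genes carry, since the results turn on which family member supplied the transcripts. They were read from the longest coding transcript of each gene in GENCODE 29, 5′ to 3′. Capitals mark the codons of the proline and the catalytic cysteine in the methyltransferases.
DNMT1: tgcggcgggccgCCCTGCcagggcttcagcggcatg
DNMT3A: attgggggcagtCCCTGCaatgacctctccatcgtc
DNMT3B: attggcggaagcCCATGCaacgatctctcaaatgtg

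In the TET genes, capitals mark the codons of the iron-binding histidine and aspartate.
TET1: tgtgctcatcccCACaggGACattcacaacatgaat
TET2: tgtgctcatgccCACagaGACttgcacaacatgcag
TET3: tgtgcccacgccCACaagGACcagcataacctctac

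The paralogs are related proteins with distinct messages. DNMT3A and DNMT3B were identical at 53.2% of 824 aligned residues in translations of these transcripts, and TET1 and TET2 at 35.9% of 1662. The longest exact run shared by the DNMT3A and DNMT3B transcripts was 18 bases, and by TET2 and TET3, the closest TET pair by this measure, 20 bases. No stretch of 50 bases of DNMT1, DNMT3B, TET1, TET2 or TET3 occurred in a transcript of another gene, and 5 of 9452 did in DNMT3A. Copies did exist for the others. Of the stretches of 50 bases, 26.0% in UHRF1, 25.3% in DNMT3L and 10.9% in TDG were found in transcripts of other genes, which for TDG was the pseudogene TDGP1. The counts of UHRF1, DNMT3L and TDG are therefore less certain, since it is not stated how the authors handled multi-mapping reads.

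The NPC library held 24065750 counted reads and the hESC library 19686728. Levels are given in CPM, counts per 1000000 reads of a library size that was corrected by the trimmed mean of M values (TMM). A gene was called measured with at least 5 CPM in either library, which is about 136 reads in the NPC and 86.9 reads in the hESC library. A call of higher or lower required that even the near end of the 95% counting interval of the ratio lay at 2-fold or beyond. Intervals cover counting error only, not differences between cultures. The 10 pluripotent cell markers summed to 17.1 CPM in NPC and 5926 CPM in hESC. All 10 were called lower, but each was under 5 CPM in NPC, so no other call was possible. Of 9 measured neural progenitor markers 8 were higher, and 5 of these 8 also reached the filter in hESC. Over all measured genes 19.6% were called higher and 19.8% lower.

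In the NPC library, DNMT3B was 118-fold lower, TET1 and DNMT1 were lower by smaller factors, and TET2 was higher. Of the 9 genes 8 were measured, all of them at 5 CPM or more in both libraries. Of these, 1 was called higher, where 19.6% of the 13535 measured genes were, and 3 were called lower, where 19.8% were. The share called in either direction was 39.4% over all measured genes, so the number of calls among 8 genes was near the background, while the ratios of DNMT3B and TET2 lay outside the middle 90% of measured genes. UHRF1, DNMT3A, TET3 and TDG did not pass the rule. The median log2 ratio of the 8 genes was -0.91, against -0.09 for all measured genes. In such bulk samples, fewer cells of a type and less RNA per cell cannot be told apart.

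**Figure D1:**
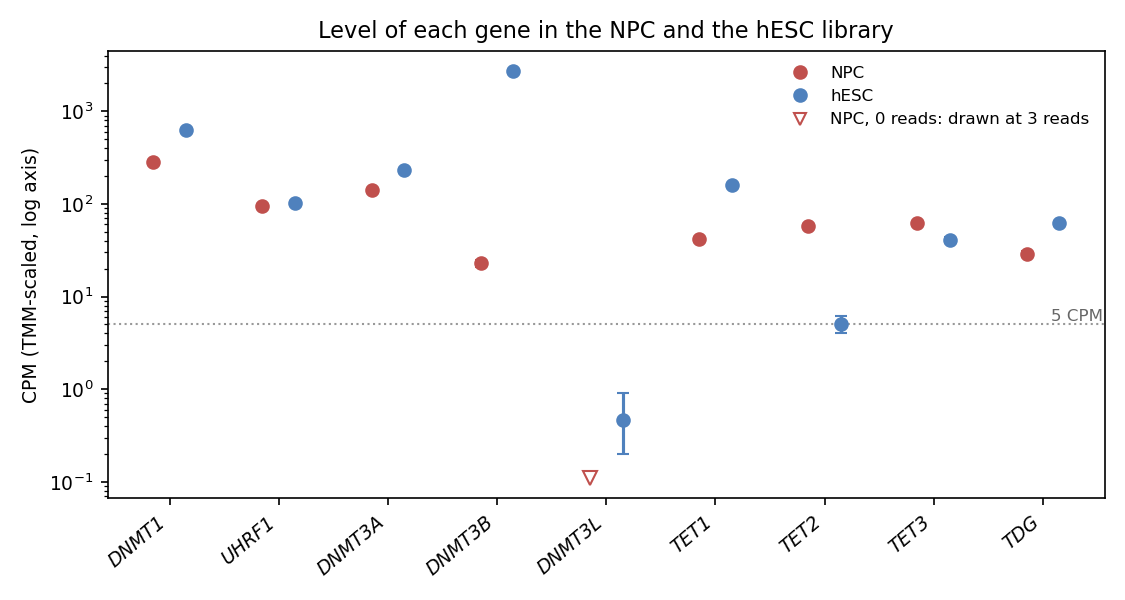
Level of each gene in CPM on a log axis in the NPC and the hESC library, 1 library each, with exact 95% Poisson intervals of the read count that are mostly smaller than the points. DNMT3B shows the widest gap, 22.9 CPM in NPC against 2696 CPM in hESC, and TET2 is the gene with the widest gap in the other direction, while DNMT3L lies under the 5 CPM line in both.

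The genes of the de novo enzymes differed unequally, DNMT3B strongly and DNMT3A by less than 2-fold. DNMT3B had 622 reads in the NPC library and 46862 in the hESC library, or 22.9 CPM against 2696 CPM. It was 118-fold lower in NPC (95% counting interval 109 to 128). In hESC it was among the most abundant messages of the cell, with 23 of the 13535 measured genes at or above its CPM, itself included, whereas in NPC 7485 genes were. Only 0.717% of measured genes had a ratio as low. DNMT3B was nevertheless still present in NPC, well above the 5 CPM filter.

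DNMT3A, the paralog that is broadly used in neural and other somatic cells, had 3808 reads and 140 CPM in NPC, against 4020 reads and 231 CPM in hESC. The difference of 1.65-fold (1.58 to 1.73) did not pass the rule. With the trend of the ratio with transcript length removed, DNMT3A was called lower (log2 ratio -1.14, against -0.72 without this step). The order of the pair differed between the libraries. DNMT3A made up 86.0% of the reads of the pair in NPC (exact 95% interval 84.9 to 87.0) and 7.90% in hESC (7.67 to 8.14). This share needs no scaling between the libraries. Per kilobase of the longest coding transcript, DNMT3A had 14.7 CPM and DNMT3B 5.27 CPM in NPC, against 24.3 CPM and 622 CPM in hESC.

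DNMT3L, the cofactor without catalytic activity that is known from mouse germ cells and embryonic stem cells, was at the edge of detection. It had 0 reads in the NPC library and 8 reads in the hESC library, so it was not measured. The exact 95% interval of the level ran up to 0.136 CPM in NPC, against 0.460 CPM found in hESC (0.199 to 0.907). The near end of the counting interval of the ratio was 2.67-fold lower in NPC, but the filter left the gene without a call.

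The genes of the maintenance pair had different ratios. DNMT1 had 7710 reads and 283 CPM in NPC, against 10802 reads and 621 CPM in hESC. It was 2.19-fold lower (2.13 to 2.26), just past the rule. With the library total in place of TMM, which raises every log2 ratio by 0.36, DNMT1 was no longer called (log2 ratio -0.78, against -1.13 with TMM). About 1 gene in 5 had a ratio as low (20.4% of measured genes).

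UHRF1, which binds hemimethylated CpG and brings DNMT1 to it, had 2608 reads in NPC and 1765 in hESC. Its level was 95.9 CPM in NPC and 102 CPM in hESC, a ratio of 0.944 (0.889 to 1.004). UHRF1 held 25.3% of the reads of the pair in NPC (exact 95% interval 24.4 to 26.1) and 14.0% in hESC (13.4 to 14.7). DNMT1 was still the most abundant of the 9 messages in NPC per kilobase, at 52.4 CPM, followed by UHRF1 at 22.2 CPM. In hESC DNMT3B came before DNMT1, which had 115 CPM per kilobase, and UHRF1 had 23.6 CPM per kilobase. This order depends on the length used. With the median coding transcript, DNMT3A (39.0 CPM per kilobase) came before UHRF1 (29.7) in NPC, and DNMT1 (841) before DNMT3B (651) in hESC. For DNMT1 that median was 738.5 bases, too short to hold the longest open reading frame of its longest coding transcript (1678 codons). Its value by this length is therefore inflated, and the hESC order by it does not put DNMT1 above DNMT3B in level.

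Seen as a family, methyltransferase reads changed in amount and in makeup. The reads of DNMT1, DNMT3A, DNMT3B and DNMT3L summed to 446 CPM in NPC and 3549 CPM in hESC, 7.95-fold lower in NPC (7.80 to 8.11). Most of this gap was DNMT3B: without it the sums were 423 CPM in NPC and 853 CPM in hESC. DNMT1 held 63.5% of the family's reads in NPC and 17.5% in hESC. DNMT3B held 5.12% in NPC (4.74 to 5.53) and 76.0% in hESC (75.6 to 76.3).

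**Figure D2:**
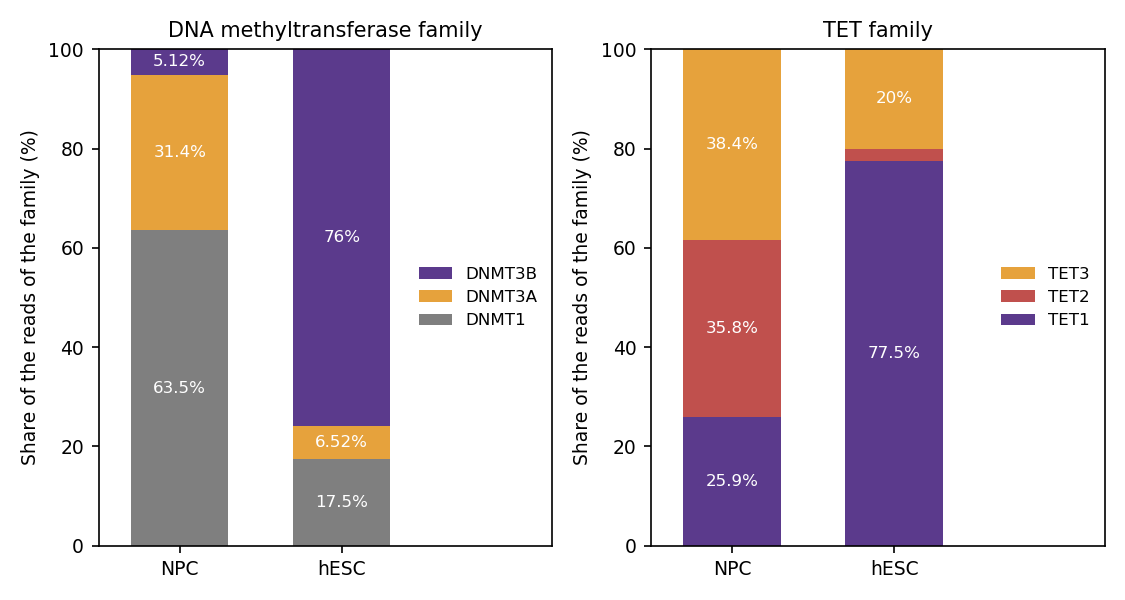
Share of each gene in the reads of its family in the NPC and the hESC library, 1 library each, with DNMT3L (at most 8 reads) too small to show. DNMT3B goes with 5.12% of methyltransferase reads in NPC and 76.0% in hESC, and TET1 with 25.9% of TET reads in NPC and 77.5% in hESC.

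Among the demethylation genes, TET1 was lower in the NPC library and TET2 was higher. TET1 had 1129 reads and 41.5 CPM in NPC, against 2774 reads and 160 CPM in hESC, 3.84-fold lower (3.59 to 4.12). TET2 had 1562 reads and 57.4 CPM in NPC, against 88 reads and 5.06 CPM in hESC, 11.3-fold higher (9.15 to 14.2). A ratio as high as that of TET2 was found for 4.46% of measured genes. TET2 lay barely above the filter in hESC. Its antisense partner TET2-AS1 had 14 reads in NPC and 0 in hESC, few beside the reads of TET2, although without a stated strand setting the 2 genes cannot be told apart where they overlap.

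TET3 had 1675 reads and 61.6 CPM in NPC, against 716 reads and 41.2 CPM in hESC. The ratio of 1.49 (1.37 to 1.63) did not pass the rule. TET3 overlaps BOLA3 in the RefSeq annotation, and BOLA3 was on the opposite side with 250 reads in NPC and 1070 in hESC.

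The summed level of the TET family differed by less than 2-fold while its makeup differed more. The 3 genes summed to 160 CPM in NPC and 206 CPM in hESC, a ratio of 0.780 (0.746 to 0.815), which was 0.998 with the library total. TET1 held 25.9% of TET reads in NPC (24.6 to 27.2) and 77.5% in hESC (76.1 to 78.9). TET2 held 35.8% in NPC (34.4 to 37.2) and 2.46% in hESC (1.98 to 3.02), and TET3 38.4% in NPC and 20.01% in hESC. Per kilobase the NPC levels were close, at 4.47 CPM for TET1, 5.65 CPM for TET2 and 5.41 CPM for TET3. In hESC they were spread out, at 17.2 CPM for TET1, 0.498 CPM for TET2 and 3.62 CPM for TET3.

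TDG, which cuts out formyl- and carboxylcytosine, had 787 reads and 28.9 CPM in NPC, against 1076 reads and 61.9 CPM in hESC. It was 2.14-fold lower by the point ratio, but the interval (1.95 to 2.35) reached below 2-fold and the gene was not called.

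**Figure D3:**
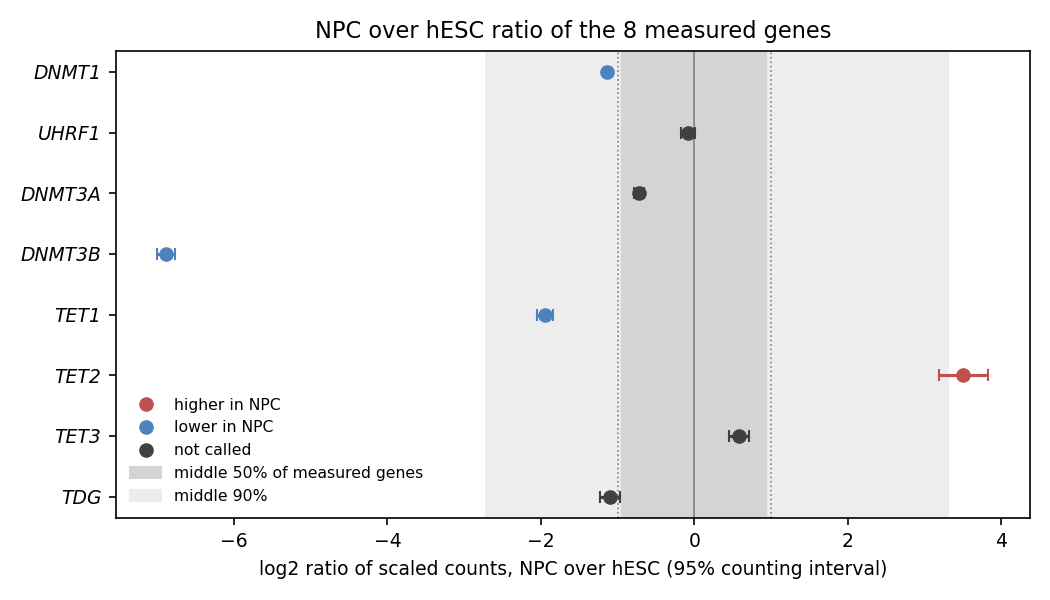
Log2 ratio of scaled counts, NPC over hESC, of the 8 measured genes with 95% counting intervals, over the range of the middle 50% and 90% of the 13535 measured genes (-0.94 to 0.93 and -2.72 to 3.31). DNMT3B at -6.88 and TET2 at 3.50 lie outside the wider range, TET1 and DNMT1 inside it, and dotted lines mark 2-fold.

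One window at a transcript start is shown for each of TET1, TET2 and DNMT3B, with every CpG, the substrate of these enzymes, in capitals. Windows run from 250 bases before to 50 after a transcript start in RefSeq on GRCh38.p14, and 8 of the 9 genes had such windows, 19 in all. The TET1 window starts the gene at chr10:68560087-68560386 on the plus strand and holds 10 CpG. The TET2 window at the first start of that gene, chr4:105145625-105145924 on the plus strand, holds 13 CpG. The DNMT3B window at hand, chr20:32779602-32779901 on the plus strand, belongs to a start within the gene and holds 3 CpG. That start lies 17467 bases from the gene start, and no window at the first start of DNMT3B was at hand.
TET1: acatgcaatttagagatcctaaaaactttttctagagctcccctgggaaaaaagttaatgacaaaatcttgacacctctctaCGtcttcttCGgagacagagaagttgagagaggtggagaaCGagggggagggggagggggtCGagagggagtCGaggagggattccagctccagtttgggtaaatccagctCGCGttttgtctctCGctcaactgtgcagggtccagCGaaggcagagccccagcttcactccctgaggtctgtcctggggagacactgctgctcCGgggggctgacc
TET2: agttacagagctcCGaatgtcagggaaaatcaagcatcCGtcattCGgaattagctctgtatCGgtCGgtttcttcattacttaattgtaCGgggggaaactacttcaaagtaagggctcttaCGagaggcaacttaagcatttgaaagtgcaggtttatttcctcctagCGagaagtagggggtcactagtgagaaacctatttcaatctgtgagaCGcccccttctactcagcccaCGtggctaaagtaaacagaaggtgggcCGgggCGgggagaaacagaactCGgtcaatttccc
DNMT3B: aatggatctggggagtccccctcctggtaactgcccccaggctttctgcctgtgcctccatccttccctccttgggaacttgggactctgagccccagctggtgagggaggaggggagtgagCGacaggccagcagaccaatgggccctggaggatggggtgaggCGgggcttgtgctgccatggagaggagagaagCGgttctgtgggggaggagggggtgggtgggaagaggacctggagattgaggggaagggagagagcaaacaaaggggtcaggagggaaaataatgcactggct

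The median over 35116 windows of this length was 14 CpG. A second TET2 window, not shown, whose start lies 1001 bases from the gene start, had 35 CpG, a count that 14.1% of all windows reached. For comparison, 56.4% of windows had as many CpG as the TET1 window, 51.7% as many as the TET2 window and 81.8% as many as the DNMT3B window. The CpG count of a window is a description of the sequence; no methylation was measured in these samples.

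Partners of DNMT1 and UHRF1 were lower in the NPC library where they were called. Of 8 measured genes in a list of maintenance partners, 4 were lower, where 19.8% of all measured genes were, and none higher, with a median log2 ratio of -1.16; with the library total 2 were lower. CDCA7L, a relative of CDCA7, was 10.7-fold lower (9.90 to 11.5), with 28.9 CPM in NPC and 308 CPM in hESC. HELLS, a chromatin remodeler needed for DNA methylation, was 4.98-fold lower (4.75 to 5.23). HELLS, CDCA7 and DNMT3B are among the genes mutated in a human immunodeficiency with hypomethylated pericentromeric DNA. The genes of this disease were not examined as a set. CDCA7, lower as well, had 37.3 CPM in NPC and 94.6 CPM in hESC. The other lower gene was USP7, a deubiquitinase that binds DNMT1 and UHRF1. PCNA, KIAA0101, LIG1 and UHRF2 were measured as well and were not called. By the point ratio they were 2.07-fold, 1.96-fold, 1.48-fold and 1.04-fold lower in NPC.

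Because DNMT1, guided by UHRF1, acts on newly replicated DNA, genes of DNA replication and cycling were listed too. Of 16 genes of DNA replication and cycling, 10 were lower in NPC, where 19.8% of all measured genes were, and none higher, with a median log2 ratio of -1.42 (8 lower and 1 higher with the library total). The licensing gene CDT1 was 7.80-fold lower (6.93 to 8.83), and CCNE1, which encodes cyclin E1, 12.6-fold lower (10.9 to 14.7). MKI67, which encodes the Ki-67 antigen, had 633 CPM in NPC and 415 CPM in hESC and was not called. CCNE2, the paralog of CCNE1, had more reads in NPC (494) than in hESC (139) and was not called. TOP2A (933 CPM in NPC, 728 CPM in hESC) and TYMS (116 CPM in NPC, 89.6 CPM in hESC) were not called either. The part of cell division in the DNMT1 ratio was not tested.

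A list of methyl-CpG readers and other genes of the MBD family, among them MBD3, held 7 genes. All 7 were measured and had positive log2 ratios, between 0.41 and 2.04. Their median was 0.94, against -0.09 for all measured genes. Of the 7, 2 were called higher, where 19.6% of all measured genes were, and none lower. With the library total 6 were called higher, as the count over all genes went to 3679, against 2649 with TMM. With the length trend removed 1 was called higher, and the median log2 ratio of the list was 0.57. MBD2 was 4.10-fold higher (3.65 to 4.63), with 75.3 CPM in NPC and 18.4 CPM in hESC, and ZBTB4, a zinc finger protein that binds methylated CpG, 2.62-fold higher (2.32 to 2.98).

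Of 7 measured genes listed as TET partners, which may help or hinder the enzymes, or as cofactor supply, 1 was higher and 1 lower. That is no larger a share than over all measured genes (19.6% higher, 19.8% lower). The median log2 ratio of the list was 0.01 (-0.02 with DESeq2 size factors). CXXC4, a chromosomal neighbour of TET2 that encodes a CXXC domain which TET2 itself lacks, was 14.2-fold higher in NPC (11.4 to 18.1), with 65.9 CPM in NPC and 4.60 CPM in hESC. Only its NPC level reached the filter, so a call in the other direction was not possible. IDH1, which makes the 2-oxoglutarate that TET enzymes consume, was 5.07-fold lower (4.87 to 5.28), while IDH2, its mitochondrial relative, had 127 CPM in NPC and 84.0 CPM in hESC and was not called.

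The base excision repair list holds genes that act after TDG, other glycosylases that start repair beside it, and GADD45A. Of 13 measured genes 5 were lower and 2 higher, where 19.8% and 19.6% of all measured genes were, with a median log2 ratio of -0.54. The glycosylase genes NTHL1 and UNG were 4.99-fold (4.26 to 5.87) and 4.19-fold (3.92 to 4.50) lower. NEIL1, another glycosylase, had 148 reads in NPC and 23 in hESC and was 4.04-fold higher (2.64 to 6.69), with its hESC level under the filter, while GADD45A, a stress-induced gene that has been linked to demethylation, was 2.40-fold higher (2.03 to 2.84).

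In the methyl donor list 4 of 11 measured genes were lower and 1 higher, a share of calls near the 39.4% over all measured genes, with a median log2 ratio of -0.41. MTHFD1, a folate enzyme, was 5.69-fold lower (5.46 to 5.94). AHCY, which clears the S-adenosylhomocysteine that methyltransferases produce, was 4.68-fold lower (4.46 to 4.92). With the length trend removed no gene of this list was higher. MAT2A, which makes the methyl donor S-adenosylmethionine, had 134 CPM in NPC and 82.0 CPM in hESC and was not called.

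**Figure D4:**
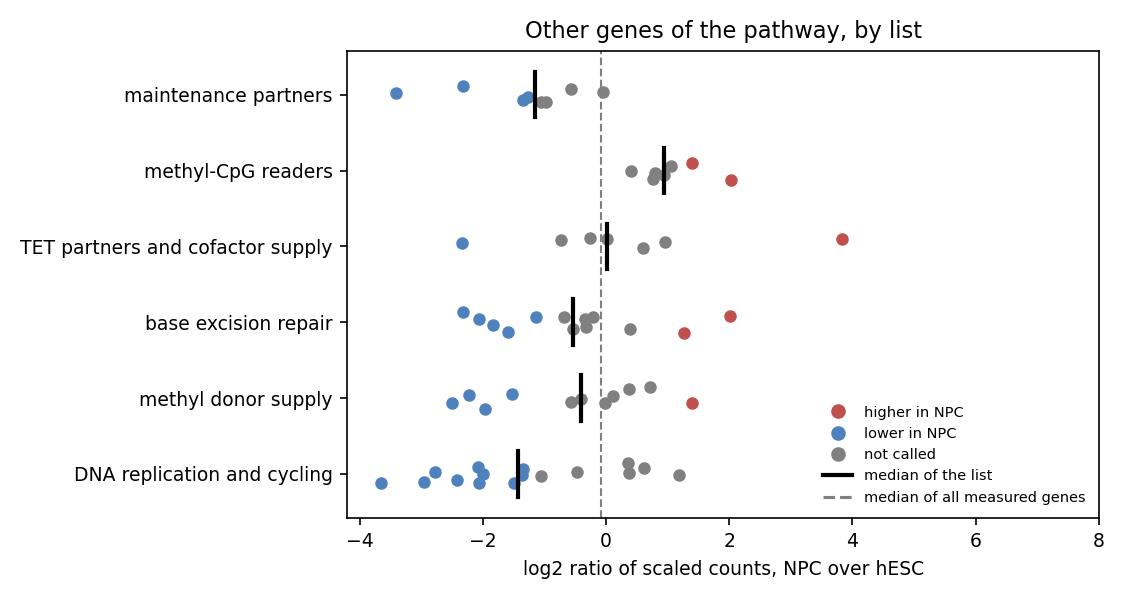
Log2 ratio of scaled counts, NPC over hESC, of each measured gene in 6 lists around the methylation and demethylation genes, with the median of each list as a bar and the median of all measured genes (-0.09) as a dashed line. All 7 genes of the methyl-CpG reader list lie right of 0, while the replication list has its median at -1.42.

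Markers of other cell types also differed between the libraries. Of 9 measured neuron markers, 6 were higher and 1 lower in NPC, where 19.6% and 19.8% of all measured genes were. The neuron markers summed to 1863 CPM in NPC and 398 CPM in hESC. Of the 6 higher ones, 4 also reached the filter in hESC, among them MAP2, which was 62.5-fold higher. STMN2, 45.9-fold higher, reached it in NPC alone, and RBFOX3, 10.4-fold lower, in hESC alone, so neither could have had the other call. Of 8 measured stroma and fibroblast markers, 6 were higher and 1 lower, beside the same shares over all measured genes. The whole stroma list summed to 1783 CPM in NPC and 831 CPM in hESC. Of the 6 higher ones, 3 also reached the filter in hESC. COL3A1, with 7837 reads in NPC and 11 in hESC, and DCN, with 303 in NPC and 4 in hESC, did not. THY1 was 11.3-fold lower, with 23.5 CPM in NPC and 267 CPM in hESC, and COL1A1 had 183 CPM in NPC and 250 CPM in hESC and was not called. No neuron or stroma marker was at 0 reads in either library. The part of these cells in the TET2 and DNMT3B ratios was not tested. Whether reads of the mouse MS5 feeder cells are among the NPC counts was not tested either, for these markers or for the 9 genes.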

How the data were processed

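RNA sequencing libraries of 1 NPC and 1 hESC sample were compared. The authors deposited raw read counts per gene symbol, as whole numbers with unequal totals. TopHat and edgeR with hg19 are named in the submitters' processing notes, with no role given; how reads were counted, whether strand was used and which annotation served is not given in the sources used here. The labels' protocols name a SMARTER mRNA-Seq kit.

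For 286 symbols on several of the 25737 rows the row with most reads was kept, which set aside 0.107% of NPC and 0.0878% of hESC reads. Effective sizes came from TMM factors (1.13 for NPC, 0.884 for hESC; edgeR 4.0.16, R 4.3.3). Log2 ratios used 0.5 added to each count, with Clopper-Pearson 95% intervals on the NPC share of a gene's reads. No label names a batch; any batch cannot be told apart from the groups. Intervals cover counting error only. No molecular identifiers are mentioned, so duplicate reads may be counted as separate ones and the intervals may be too narrow even for that. On simulated counts of 24462 genes the rule took 67 of 67 genes with a true 3-fold change. It took 0 of 67 with a 1.5-fold change and 0 of 12619 without change. These were Poisson counts with no variation between cultures, and changes were placed only in genes well above the filter. The outcome is therefore no error rate for the calls made here.

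Members and lists were chosen with earlier results of these data known. All members are named; of each list, up to 2 called genes per direction with the farthest near bound. HELLS partner CDCA7, USP7, PCNA, KIAA0101, LIG1, UHRF2, IDH2, MAT2A, MKI67, CCNE2, TOP2A, TYMS, MBD3 and COL1A1 were named after their values were seen. Some genes chosen this way are not reported here. Lengths and transcript sequences came from GENCODE 29 (GRCh38) and promoters from RefSeq, used by gene name. Alternatives were DESeq2 1.42.0 size factors, upper-quartile factors, the library total, sizes without mitochondrial and ribosomal protein genes, filters at 1 and 20 CPM or none, a 4-fold bound, the point ratio, log2 of CPM + 1, summed rows, and the length trend removed (lowess, statsmodels 0.14.6, fraction 0.5; 94.8% of measured genes had a length). Python 3.11.15, scipy 1.17.1 and pandas 2.3.3 did the rest.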

Additional observations from a re-analysis of the deposited data

How the results depend on the processing

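DNMT3B stayed lower and TET2 higher by the rule under all 12 alternatives; their log2 ratios ranged from -7.02 to -6.52 and from 3.06 to 3.85 over the 7 that change the ratio. TET1 stayed called lower except with a 4-fold bound, and ranged from -2.36 to -1.59. With a 4-fold bound 2 members were called, against 4, and 2219 of all genes, against 5332. DNMT1 lost its call with the 4-fold bound and with the library total. TDG was called lower by the point ratio and by log2 of CPM + 1 (log2 ratio -1.07), DNMT3L with no filter, and DNMT3A with the length trend removed. UHRF1, called under none of the 12, had a log2 ratio of 0.27 with the library total and -0.08 with TMM. With the library total 67.2% of calls over all genes were higher in NPC (3679 higher, 1796 lower), against 49.7% with TMM (2649 higher, 2683 lower). The filter of 20 CPM left 1684 genes higher, and moved the median log2 ratio of the repair list to -1.14, with fewer genes tested. The cause of the other changes was not tested. No paired analysis was possible because each group had 1 library.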

Other observations

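Germline genes whose promoters are methylated in somatic cells were near the detection limit in both libraries. None of 12 listed genes reached 5 CPM, and together they had 234 reads (8.60 CPM) in NPC and 248 reads (14.3 CPM) in hESC. MAEL, a gene of the piRNA pathway, had 61 reads in NPC and 7 in hESC, and SYCP1, a gene of the meiotic synaptonemal complex, had 2 reads in NPC and 37 in hESC. DAZL had 15 reads in NPC and 27 in hESC. MAEL, SYCP1 and DAZL were picked after their values were seen.

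DPPA3, a maternal factor that keeps UHRF1 from chromatin in mouse, had 3 reads in NPC and 67 in hESC and was below the filter in both.

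By distance in log2(CPM + 1) over the 2 libraries, the genes nearest to DNMT3B were ESRG (8.64 CPM in NPC, 2718 CPM in hESC) and PODXL (67.8 CPM in NPC, 1922 CPM in hESC). At distances of 1.31 and 1.60 log2 units, neither was close to DNMT3B. Those nearest to TET2 were LRRN2 (56.7 CPM in NPC, 5.18 CPM in hESC) and MAPT, the gene of tau (58.1 CPM in NPC, 4.72 CPM in hESC). Their distances were 0.03 and 0.09. CTPS1 and LRRC8A were nearest to TET1, and DDB1 was near DNMT1. With 2 libraries this likeness is only one of level.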
